A study of Mus musculus with 2 samples.

Results

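The genes described here are 10 regulators of energy metabolism in the heart: the nuclear receptors Ppara, Ppard and Pparg (the PPAR family) and Esrra, Esrrb and Esrrg (the estrogen-related receptors, or ERR family), the coactivators Ppargc1a and Ppargc1b (PGC-1 alpha and beta), and Nrf1 and Tfam, which act on the genes of the mitochondrion. They were chosen by name, from a list of such regulators, and matched to Ensembl identifiers. All 10 were among the 17646 genes of the deposited tables, and 8 of them were among the 12329 genes tested, those at 1 RPKM or more in at least 1 library. RPKM is the number of reads per kilobase of the listed gene length and per M mapped reads. RNA came from hearts of mouse embryos on a BALB/c background at embryonic day 13.5, from wild type (1 library) and from SRSF10-/- embryos (1 library, called the knockout here), in which the SR-family splicing factor gene Srsf10 is lost. The labels do not say how many embryos or which sex each library holds, nor how the allele was made.

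PPARs bind DNA as heterodimers with retinoid X receptors, are activated by fatty acids and their derivatives, and turn on genes of fatty acid uptake and oxidation. ERRs have no known natural ligand that they require. They depend on PGC-1 coactivators and control genes of the citric acid cycle and the respiratory chain. NRF1, the nuclear respiratory factor, activates nuclear genes for mitochondrial proteins, while TFAM packages mitochondrial DNA and starts its transcription. The fetal heart relies largely on glucose and lactate, and this network is known for the turn to fatty acid oxidation around birth.

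With 1 library in each group there are no replicates, and no significance test was made. Intervals given are 95% exact intervals of the read counts, which hold no variation between embryos, and higher and lower are said of these libraries alone. The wild-type library held 39.61 M reads and the knockout library 38.89 M. Srsf10 itself was at 35.3 RPKM in wild type and 1.45 RPKM in knockout. Reads of 4 Y-linked genes (Ddx3y, Eif2s3y, Kdm5d and Uty) summed to 2943 for wild type and 7 for knockout, so sex and genotype cannot be told apart in any value below. Cardiomyocyte markers were present in both libraries, with all 8 of the list measured and a summed level of 10789 RPKM in wild type and 10006 RPKM in knockout. In such whole-organ RNA, fewer cells of a type and less RNA per cell cannot be told apart.

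None of the 8 regulators tested differed 1.5-fold between the libraries, where 2.95% of all genes tested did. At 2-fold the count was also 0, where 0.543% of genes passed. The ratios used for these counts were of RPKM + 1, which understates the difference of low genes. The median log2 ratio of the 8, knockout over wild type, was -0.09 and that of all genes tested -0.01, with quartiles of -0.14 and 0.13. By direction, 5 of the 8 were below 0 (Ppard, Nrf1, Ppargc1b, Tfam and Ppargc1a), and 51.8% of all genes tested were. The counting interval of the read ratio left out 1 for 5 of the 8, 1 above and 4 below, where it did so for 59.6% of all genes tested (28.0% above and 31.6% below).

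The PPAR family was carried by Ppard. Ppard, the most widely expressed PPAR, had 1120 reads (8.79 RPKM) in wild type and 918 reads (7.34 RPKM) in knockout. It was the regulator farthest apart of the 8 tested, 1.20-fold lower in knockout (1.10 to 1.31), with a log2 ratio of -0.23. Of all genes tested 25.8% were at least as far apart. Ppara, the PPAR of fatty acid oxidation in adult heart and liver, had 106 reads (0.784 RPKM) in wild type and 108 (0.814 RPKM) in knockout, a fold of 1.04 (0.787 to 1.37). Pparg, the regulator of adipocyte formation that macrophages also express, had 42 reads (0.571 RPKM) and 63 reads (0.872 RPKM). Its read ratio was 1.53 (1.02 to 2.31), the widest interval of the 10 genes. Ppara and Pparg lay below 1 RPKM in both libraries and so entered no count above.

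Per length, Ppard made up 86.6% of the summed PPAR level in wild type and 81.3% in knockout. Pparg made up 5.63% and 9.67%. The summed level of the family was 10.1 RPKM in wild type and 9.02 RPKM in knockout. Markers of cells in which Pparg is abundant were read alongside it. Among 6 adipocyte markers, 4 are not listed for wild type and 5 not for knockout, Plin1, Cidec, Lep and Cfd in neither, and the listed ones summed to 0.0761 and 0.141 RPKM. The tables list only genes with reads, and a few genes that heart cells use, such as Tomm20, are also not listed, so a missing gene is not a measured absence. Of 7 macrophage markers tested 6 were higher in knockout, and the list of 8 summed to 50.1 RPKM in wild type and 67.1 RPKM in knockout, all 8 being listed in both. The part of such cells in the Pparg value was not tested.

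Among the ERR genes Esrrg and Esrrb were the closest of all 10 regulators between the libraries, and Esrra was slightly higher in knockout. Esrra, the most abundant ERR in these data and a target of PGC-1 alpha, had 2253 reads (13.1 RPKM) in wild type and 2438 reads (14.5 RPKM) in knockout. It was 1.10-fold higher in knockout (1.04 to 1.17) and the only one of the 8 tested whose counting interval lay above 1, as it did for 28.0% of all genes tested. Esrrg, the ERR most tied to the oxidative program of the perinatal heart, had 2529 reads (11.9 RPKM) and 2499 reads (12.0 RPKM), a fold of 1.01 (0.952 to 1.06). Esrrb, better known from pluripotent cells and the placenta, had 608 reads (3.57 RPKM) and 600 reads (3.59 RPKM), a fold of 1.01 (0.897 to 1.13). For Esrrg these intervals leave room for a counting difference of no more than 1.06-fold in either direction.

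In the wild-type heart Esrra, Esrrg and Esrrb held 45.9%, 41.6% and 12.5% of the summed ERR level of 28.6 RPKM. In the knockout heart they held 48.2%, 39.9% and 12.0% of 30.0 RPKM. The summed ERR level in knockout was 1.05 times that of the wild type. Markers of pluripotent or germ cells, where Esrrb is best known, were low: of 5 such genes none reached 1 RPKM, Pou5f1 and Dppa3 are not listed in either table, and the listed ones summed to 1.18 RPKM in wild type and 1.02 RPKM in knockout.

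Both PGC-1 coactivators were slightly lower in knockout. Ppargc1a, the inducible coactivator that drives mitochondrial biogenesis, had 3761 reads (14.7 RPKM) in wild type and 3451 reads (13.7 RPKM) in knockout, 1.07-fold lower (1.02 to 1.12). Ppargc1b, its closest relative, had 908 reads (6.27 RPKM) and 785 reads (5.52 RPKM), a read ratio of 0.881 (0.799 to 0.970). Ppargc1a stood at 2.34 times the RPKM of Ppargc1b in wild type and 2.49 times in knockout. The third family member, Pprc1, an entry of the list of partners, was at 13.1 RPKM in wild type and 12.9 RPKM in knockout, with an interval of 0.934 to 1.04 around its read ratio of 0.985. It was named after its values were seen.

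Nrf1 and Tfam were also on the lower side. Nrf1 had 1565 reads (9.77 RPKM) in wild type and 1305 reads (8.30 RPKM) in knockout, 1.18-fold lower (1.09 to 1.27), and 29.4% of all genes tested were at least as far apart. Tfam had 1626 reads (9.85 RPKM) and 1488 reads (9.18 RPKM), 1.07-fold lower, with an interval that reaches 1 (0.999 to 1.15). Nrf1 is a different gene from Nfe2l2, whose product is often called NRF2, and from the gene for GABP, the second nuclear respiratory factor.

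**Figure D1:**
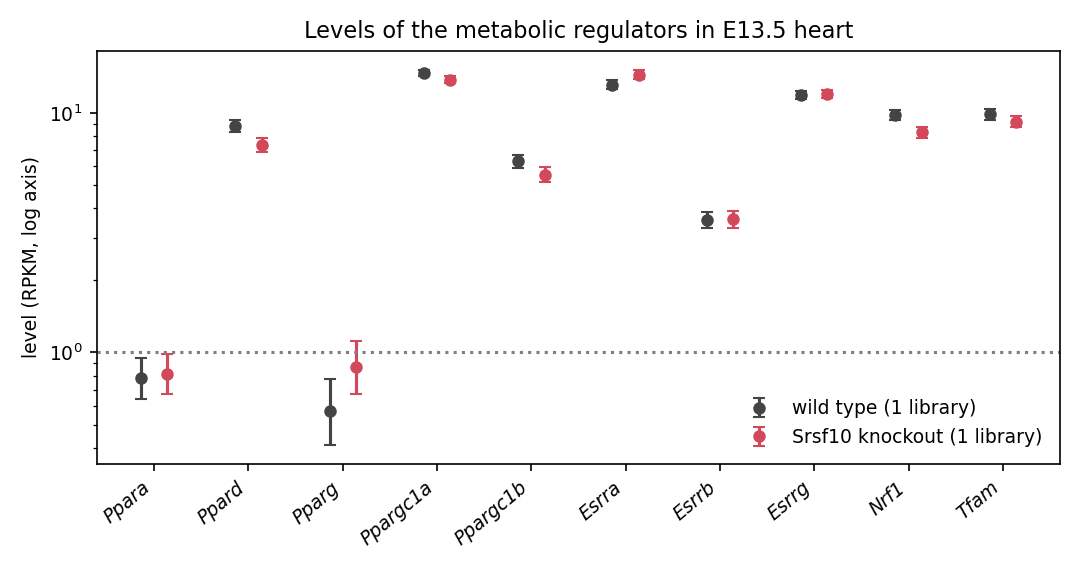
Level of each regulator in RPKM (log axis) in the wild-type library (grey) and the knockout library (red), 1 point per library, with 95% exact Poisson intervals of the read count and a dotted line at 1 RPKM. Ppara and Pparg sit below the line in both libraries, and the other 8 lie between 3.57 and 14.7 RPKM.

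**Figure D2:**
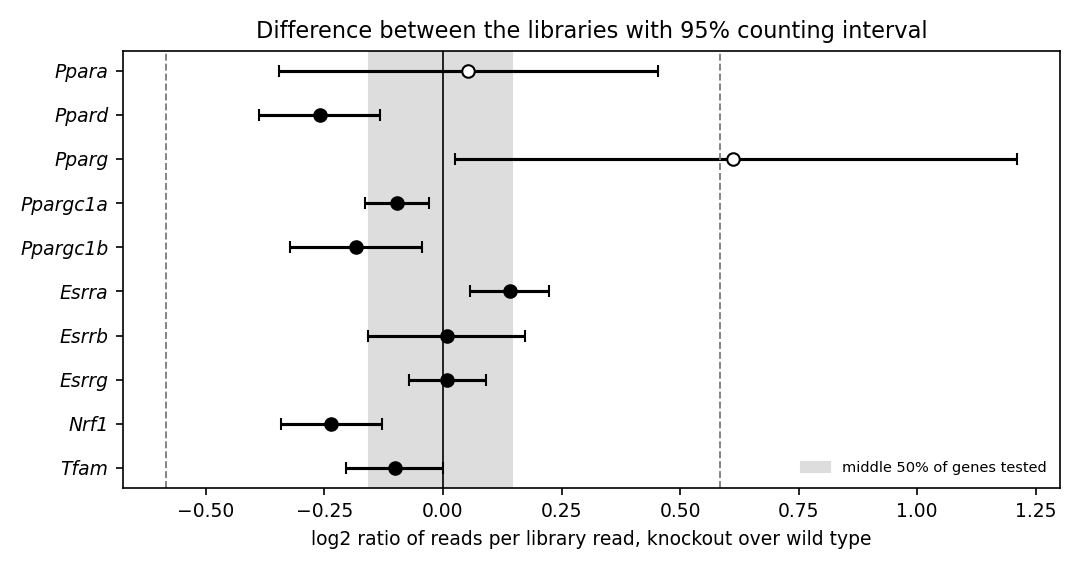
Log2 ratio of reads per library read, knockout over wild type, for each regulator, with its 95% exact counting interval. Grey shading spans the interquartile range of all genes tested on the same scale, dashed lines mark 1.5-fold, and open points are genes below 1 RPKM in both libraries. Only Pparg, at 42 and 63 reads, has a point beyond a dashed line.

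Ordered by level, the wild-type heart had Ppargc1a, Esrra, Esrrg, Tfam, Nrf1, Ppard, Ppargc1b, Esrrb, Ppara and Pparg, from 14.7 to 0.571 RPKM. Of the 9 pairs of neighbours in that order, 3 had overlapping counting intervals: Tfam with Nrf1, Nrf1 with Ppard, and Ppara with Pparg. In the knockout Esrra stood above Ppargc1a (14.5 against 13.7 RPKM) and Pparg above Ppara (0.872 against 0.814 RPKM), and both of these pairs had overlapping intervals, as did Tfam with Nrf1. The other places were the same in both libraries. The widest step in each order lay below Esrrb, which was 4.55 times the level of Ppara in wild type and 4.11 times that of Pparg in knockout. Among all 17646 genes listed, 74.6% had a lower RPKM than Ppargc1a in wild type, 71.8% a lower one than Esrra, and 27.2% a lower one than Pparg.

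These levels rest on the gene length that the authors listed, and for Nrf1 and Esrra that length matters. For Ppara, Ppargc1a, Ppargc1b, Esrrg and Tfam it equals the length of a protein-coding transcript in GENCODE M21. For Nrf1 the listed 4042 bases equal the length of a retained-intron transcript, of which 715 bases (17.7%) lie in exons of coding transcripts of the gene. The longest coding transcript of Nrf1 has 3584 bases. For Esrra the listed 4338 bases exceed the longest transcript (2489 bases) and come near the 4387 bases of all its annotated exons together. Dividing by another length leaves the ratio between the libraries as it is, but which bases were counted can alter it. For Nrf1 the counted bases are not known, and how far reads outside exons of coding transcripts enter its ratio was not tested. The level does change with the length. With that of the longest coding transcript, Esrra was at 25.4 in wild type and 28.0 in knockout, in reads per kilobase and per M reads. By this measure, added after the data were seen, it led the order in both libraries. That transcript has 2242 bases, fewer than the 4284 bases of Esrra covered in wild type, so this divisor leaves out covered bases. Per covered kilobase, a measure also added later, Esrra was at 13.3 in wild type and 14.7 in knockout.

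The deposited coverage, the percent of the listed length touched by reads, set Nrf1 apart from the other regulators. It was 37.3% in wild type and 42.4% in knockout. In the wild type 110 other genes had a read number and a length within 10% of those of Nrf1, with a median coverage of 96.4%, and none of them was covered less than Nrf1. If the listed bases are those of the retained-intron transcript, at least 794 covered bases in wild type and 998 in knockout lay outside exons of coding transcripts. Coverage was 5.05 percentage points higher in knockout although the gene had fewer reads there, and 8.43% of all genes tested had a gain as large. Genes near full coverage cannot gain as much, and genes of like starting coverage were not compared. Per covered kilobase, also added after the data were seen, Nrf1 would lead both orders, at 26.2 in wild type and 19.6 in knockout.

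The 7 at more than 3 RPKM besides Nrf1 had 93.5% to 99.4% of their length covered in wild type and 91.9% to 99.5% in knockout. Tfam was lowest of these, at 93.5% and 91.9%, beside a median of 96.8% for 113 like genes. Ppara was covered at 79.5% and 76.2% and Pparg at 77.5% and 91.4%, the latter with 42 and 63 reads. For Pparg 32 like genes had a median of 63.1% in wild type, and 28 of them were covered less. The coverage of Pparg was 13.9 percentage points higher in knockout, a gain reached by 1.89% of all genes tested, beside its higher read number there. Pparg is not among those genes, and a gene near full coverage cannot gain as much. Its gain was not compared with that of genes of like starting coverage. None of the 10 genes shared more than 1.99% of the 31-base words of its longest transcript with another annotated gene. Near-identical annotated copies thus bear little on reads from that transcript. Bases outside it and copies that are not annotated were not checked. For Esrra that transcript has 2489 bases, against 4338 listed. Strand use is not given, and 1 overlap touches a coding neighbour: 73 bases of Esrra exons are also covered by Trmt112, which runs the other way and had 2300 reads in wild type and 2476 in knockout. A noncoding antisense gene, Gm44079, overlaps 513 bases of Pparg exons and is not listed in either table. Its part in the reads and coverage of Pparg was not tested. Splice forms are not separated in these gene totals.

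**Figure D3:**
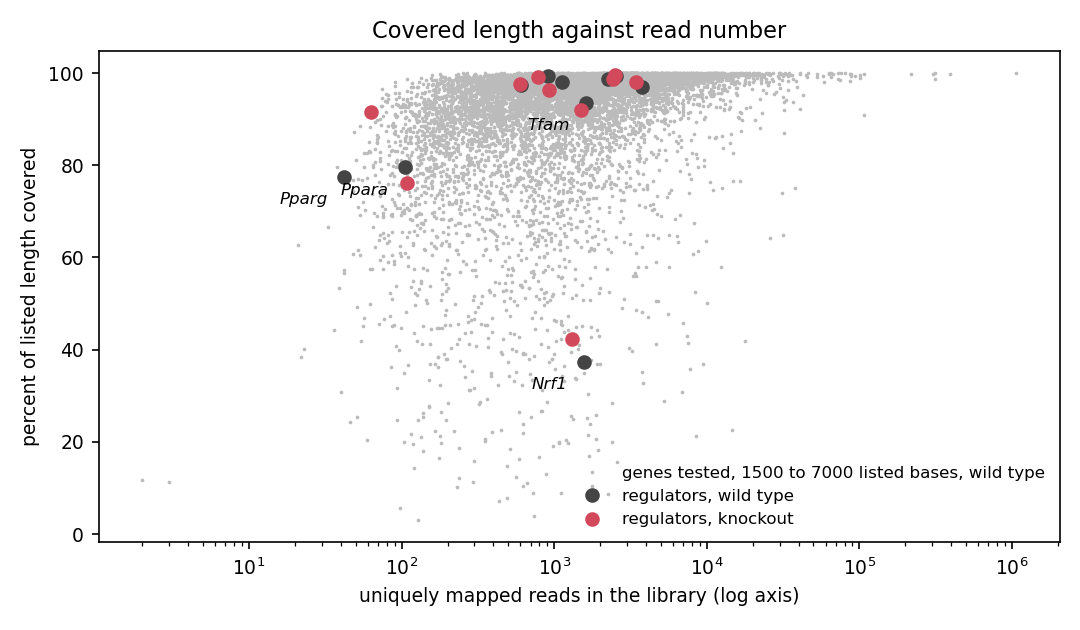
Percent of the listed gene length covered by reads (y axis) against the number of uniquely mapped reads (log x axis). Grey dots are the genes tested with listed lengths of 1500 to 7000 bases in the wild-type library, and large points are the 10 regulators in wild type (dark) and knockout (red). Nrf1 lies at 37.3% and 42.4%, far below genes with as many reads.

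RefSeq promoters on GRCm38.p6, 250 bases before to 50 after a start, were found for 9 of the 10 regulators. They were searched on both strands for binding motifs of the group's own factors and of GABP, which is outside the group. The NRF1 motif GCATGCGC occurred in 2.71% of 32851 promoters and, among the regulators, in those of Ppara and Esrra. The ETS motif CCGGAAG, the core bound by GABP, occurred in 8.86% of promoters and, among the regulators, only in that of Tfam. The ERR element TCAAGGTCA occurred in 0.423% of promoters and in none of the 9. The receptor half-site AGGTCA, which the ERR element contains, occurred in 16.3% of promoters and, among the regulators, only in those of Pparg. These shares are per promoter, while a gene counts once for any of its promoters, and Esrrg had 4 and Pparg 3. Counted by tested gene with a promoter sequence, 593 held the NRF1 motif and 8996 did not. For the ETS motif these counts were 1948 and 7641. The 120 bases before the start of Ppara (chr15:85735656-85735775, plus strand), Esrra (chr19:6921809-6921928, minus strand) and Tfam (chr10:71238045-71238164, minus strand) are shown because each holds a motif of a nuclear respiratory factor, in capitals. With -1 as the base before the start, the capitals cover bases -31 to -22, where the motif lies on both strands and overlaps itself, -34 to -27 and -47 to -41.
Ppara: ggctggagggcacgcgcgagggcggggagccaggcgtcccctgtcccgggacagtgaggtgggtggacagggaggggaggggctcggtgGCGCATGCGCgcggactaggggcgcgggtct
Esrra: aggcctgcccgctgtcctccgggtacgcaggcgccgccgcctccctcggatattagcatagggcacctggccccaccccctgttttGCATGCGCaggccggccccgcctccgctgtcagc
Tfam: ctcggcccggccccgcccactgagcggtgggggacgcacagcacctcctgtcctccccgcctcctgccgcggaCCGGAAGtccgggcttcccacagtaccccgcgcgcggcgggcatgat
Ppara and Esrra, with the NRF1 motif, were at log2 ratios of 0.02 and 0.13, while Nrf1 was at -0.21. Tfam, with the ETS motif, was at -0.09, while Gabpa, the DNA-binding subunit of GABP, was at 19.9 RPKM in wild type and 20.8 RPKM in knockout and was named after its values were seen. A match of letters is a description and not a bound site.

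The NRF1 motif also occurred in promoters of 8 tested genes of the lists described next: Cycs, Sdhb, Uqcrc1, Ogdh, Acadm, Alas1, Polrmt and Tfb2m. They encode, among others, cytochrome c (Cycs), the first enzyme of heme synthesis (Alas1) and the mitochondrial RNA polymerase (Polrmt). All 8 lay below 0, from -0.06 for Uqcrc1 to -0.36 for Tfb2m, with a median log2 ratio of -0.17, and they were named after their values were seen. Over all genes tested that have a promoter sequence, the 593 with the motif did not share this: 49.6% of them were below 0 and their median was 0.00, beside 51.9% and -0.01 for the 8996 without it. Of tested list genes with the ETS motif 11 of 17 were below 0, beside 52.2% of all tested genes with it, and of those with AGGTCA 12 of 15, beside 51.5%. The lists that these genes come from lay mostly below 0 when counted whole, motif genes included. Their genes without a motif were not counted apart. Below 0 were 22 of 28 PPAR targets tested, 22 of 34 ERR and PGC-1 targets, and 12 of 20 genes of the mitochondrial DNA machinery. The shares over all genes are therefore not a like comparison for motif genes of these lists.

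The partners and cofactors of these receptors showed no common direction. Of 25 genes 24 were tested, 11 above 0 and 13 below, none 1.5-fold apart, with a median log2 ratio of -0.01. Sirt1, the deacetylase that acts on PGC-1 alpha, was 1.30-fold lower in knockout (1.18 to 1.42), and Perm1, a muscle regulator downstream of PGC-1 and ERR, went from 229 to 152 reads, 1.48-fold lower (1.20 to 1.83). Klf15, a transcription factor of cardiac lipid metabolism, was 1.40-fold higher at 197 and 271 reads (1.16 to 1.69), and the acetyltransferase Crebbp 1.14-fold higher (1.09 to 1.19). The corepressor Ncor1 had the highest mean level over the 2 libraries, at 32.9 RPKM in wild type and 32.8 RPKM in knockout.

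The retinoid X receptors, the obligate partners of the PPARs, were singled out after their values were seen, and all 3 were lower in knockout. Rxra had 15.2 RPKM in wild type and 12.2 RPKM in knockout, a read ratio of 0.800 (0.758 to 0.845). Rxrb had 16.4 and 13.6 RPKM, a read ratio of 0.832 (0.774 to 0.893). Rxrg was below 1 RPKM, with 83 reads in wild type and 49 in knockout. Rxra and Rxrb each exceeded Ppard, their most abundant partner of the PPAR family, in RPKM in both hearts.

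Among 15 other nuclear receptors taken for comparison, 13 were tested, 6 above 0 and 7 below, with a median log2 ratio of -0.01 and none 1.5-fold apart on RPKM + 1. Thra, the thyroid hormone receptor alpha, was the most abundant, at 50.3 RPKM in wild type and 41.0 RPKM in knockout, and so stood above every regulator described here. It was 1.23-fold lower in knockout (1.18 to 1.28). Nr2f2, an orphan receptor of atria and veins, was 1.26-fold lower (1.19 to 1.33). On the other side Rora was at 1.49 and 2.24 RPKM and Nr2c2 1.19-fold higher (1.11 to 1.28), with 46.0% of the words of Nr2c2 shared with other genes.

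Genes that PPARs are known to control lay mostly on the lower side. Of 31 listed targets 28 were tested, 22 below 0 and 6 above, with a median log2 ratio of -0.13 against -0.01 for all genes tested. In the knockout 2 were at least 1.5-fold lower, as 1.44% of all genes tested were, and none was 1.5-fold higher. These were Fabp4, which carries fatty acids in capillary endothelium, fat cells and macrophages, with 54.6 RPKM in wild type and 14.6 RPKM in knockout (3.74-fold lower, 3.33 to 4.22), and Angptl4, a secreted inhibitor of lipoprotein lipase, with 4.09 and 2.17 RPKM (1.89-fold lower, 1.62 to 2.20). Fabp3, the heart fatty acid-binding protein, was the most abundant at 381 and 289 RPKM, and 50.1% of its words also occur in other genes. Cidea, a lipid droplet protein, was 1.59-fold higher by reads at 50 and 78 reads (1.10 to 2.31), and Acot1, an acyl-CoA thioesterase, 1.17-fold higher (1.05 to 1.30), although other genes share 22.3% of its words. Several marker lists of other cells differed beside this one. Fibroblast or cushion markers summed to 642 RPKM in wild type and 454 RPKM in knockout, with 5 of 5 below 0. Skeletal muscle markers summed to 36.0 and 113 RPKM: Tnni2, Tnnt3 and Mylpf, the 3 tested of 7, were above 0, led by Tnni2 at 24.4 and 96.8 RPKM, while Myod1, Myog, Myh3 and Pax7 were below 1 RPKM in both and had fewer reads in knockout. Macrophage markers are given above. Of 7 hepatocyte markers Fgb is in neither table, and the list summed to 3.92 and 1.18 RPKM. Alb had 88 reads in wild type and is not listed for knockout, and Afp had 145 and 4 reads, while Ttr had 22 and 34 and Apob 74 and 199. Endothelial markers summed to 226 and 221 RPKM, with 3 of 6 above 0 and 3 below. Of these 6 only Cldn5 was at least 1.5-fold apart, at 5.57 and 3.09 RPKM (1.80-fold lower in knockout, 1.49 to 2.18). Epicardial markers were at 134 and 149 RPKM. The single marker genes here were named after their values were seen. The part of such cells in the values of the PPAR targets was not tested.

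ERR and PGC-1 targets of the citric acid cycle, respiration and energy transfer showed a smaller offset. All 34 were tested, 22 below 0 and 12 above, with a median log2 ratio of -0.08 and none at least 1.5-fold apart on RPKM + 1. The 8 cardiomyocyte markers had a similar median of -0.06, with 6 below 0 and 2 above. The part of cell numbers in the values of the ERR and PGC-1 targets was not tested. Cox8b, a muscle form of a cytochrome oxidase subunit, was 1.43-fold lower in knockout (1.26 to 1.62), and Uqcrfs1, the Rieske iron-sulfur protein of complex III, went from 129 to 95.8 RPKM, 1.35-fold lower (1.30 to 1.40). Ckmt2, the mitochondrial creatine kinase of muscle, went from 3.64 to 5.50 RPKM, 1.51-fold higher by reads (1.27 to 1.81), and Vegfa, the vascular growth factor, was 1.13-fold higher (1.09 to 1.17). The most abundant, Atp5b of the ATP synthase, was at 1420 RPKM in wild type and 1369 RPKM in knockout.

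The machinery that copies and transcribes mitochondrial DNA went both ways. Of 21 genes 20 were tested, 8 above 0 and 12 below, with a median log2 ratio of -0.02 and none 1.5-fold apart. The related factors Tfb1m and Tfb2m, which descend from an RNA methyltransferase, lay at opposite ends. Tfb2m, which joins TFAM and the polymerase in starting transcription, had 690 and 508 reads, 1.33-fold lower in knockout (1.19 to 1.498), though 43.9% of its words are shared with other genes. Tfb1m, a ribosomal RNA methyltransferase, had 498 and 617 reads, 1.26-fold higher (1.12 to 1.42). Top1mt, the mitochondrial topoisomerase, was 1.42-fold lower (1.22 to 1.67), and Mterf4, which acts on the mitochondrial ribosome, 1.23-fold higher (1.11 to 1.36), although other genes share 59.6% of its words. Lonp1, the protease that degrades free TFAM, was the most abundant, at 35.3 RPKM in wild type and 27.4 RPKM in knockout, 1.29-fold lower (1.23 to 1.35).

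Transcripts of the mitochondrial genome itself, whose transcription TFAM starts, lay on the higher side. Of 13 protein-coding genes 12 were tested, 10 above 0 and 2 below, with a median log2 ratio of 0.15 and none 1.5-fold apart. The genes share their transcripts, since each strand is copied as 1 long precursor, and so are not separate measurements. mt-Nd1 was 1.23-fold higher in knockout (1.226 to 1.236) and mt-Atp8 1.22-fold higher (1.21 to 1.23). mt-Nd3 was 1.12-fold lower (1.10 to 1.14) and mt-Co3 1.02-fold lower (1.01 to 1.02), and these 2 share 98.1% and 99.9% of their words with other annotated genes. mt-Co2, the highest by the mean of the 2 libraries, went from 17941 to 20214 RPKM, with all of its words shared. All mitochondrial genes together took 11.0% of the reads in wild type and 12.1% in knockout. Tfam and these transcripts lay on opposite sides of 0, at log2 ratios of -0.09 and, as the list median, 0.15. The counting interval of the Tfam read ratio reaches 1, so the counts do not fix its side.

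**Figure D4:**
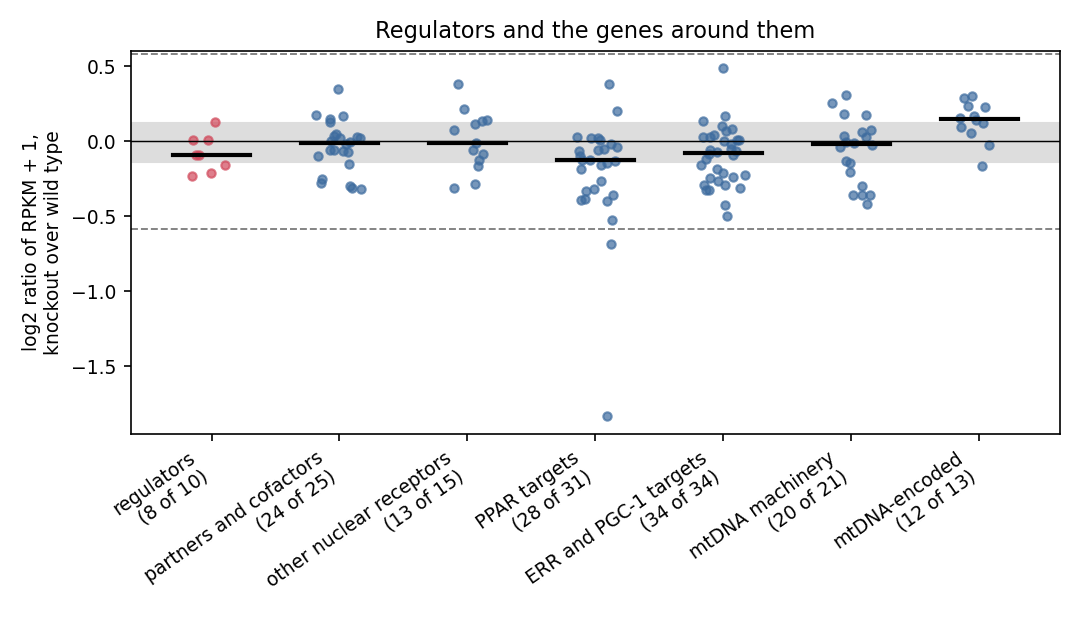
Log2 ratio of RPKM + 1, knockout over wild type (y axis), for each gene tested of the regulators (red) and of the lists around them (blue), with the number tested of the number listed under each name. Black bars are list medians, grey shading is the interquartile range of all genes tested and dashed lines mark 1.5-fold. PPAR targets have the lowest median, -0.13, and genes of the mitochondrial genome the highest, 0.15.

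With 2 libraries, likeness of pattern comes down to likeness of ratio. Among 119 genes of the lists at 5 RPKM or more in at least 1 library, the gene nearest in log2 ratio was Ndufa4 for Ppard, Cox4i1 for both Ppargc1a and Tfam, Acot2 for Ppargc1b, Nrip1 for Esrra, Cs for Esrrg and Cycs for Nrf1. For these 7 regulators the differences in log2 ratio of RPKM + 1 ran from 0.00033 for Nrf1 to 0.0038 for Ppard. With so many genes near 0 such close matches are common, and they are given as a description.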

How the data were processed

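The authors deposited, per the file headers, counts of uniquely mapped reads per Ensembl gene, gene length, coverage and RPKM for each library. The deposited coverage is a percent of the listed length. The submitters' processing notes name Bowtie 0.12.2 and mm9; the annotation and strand setting were not given in the sources used here. Symbols matched 17196 of 17646 identifiers. Genes with no row in a table were counted as 0 reads.

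Log2 ratios of the authors' RPKM + 1, knockout over wild type, were computed for genes at 1 RPKM or more in 1 library, and genes 1.5-fold apart were counted. The median listed length was 3130 bases, at which 1 RPKM is about 124 reads. Fold values are ratios of reads per library read, with exact conditional binomial 95% intervals. The labels name no molecular identifiers, so reads may repeat molecules, and intervals cover counting error only. The ratio code was tested on simulated data. No test across genes was run, since single libraries leave no spread to estimate. Named besides the 10 regulators were, for each of 6 pathway lists, the 2 highest and 2 lowest genes by log2 ratio and the most abundant by mean RPKM, for each regulator tested the listed gene nearest in log2 ratio (that of Esrrb is not reported here), and Srsf10. Other genes named were chosen after their values were seen, except the Y-linked ones, genes not listed in the tables and a neighbour overlapping Esrra. The regulators and lists were chosen with earlier results of these data known. Gene models, and 31-base words shared between genes, came from GENCODE M21. Alternatives were pseudocounts of 0.1 and 5, no filter or 5 RPKM, a lower fold rule and one of 2, and rescaling by edgeR 4.0.16 TMM factors, by the median ratio or to reads outside the mitochondrial genome. Python 3.11.15 with scipy 1.17.1 was used.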

Additional observations from a re-analysis of the deposited data

How the results depend on the processing

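No regulator tested passed 1.5-fold under any pseudocount, filter or rescaling tried, nor did any pass the lower fold rule or 2-fold under the main settings. The median log2 ratio of the regulators ranged from -0.10 to -0.04, the latter with no filter, when Ppara and Pparg enter. List medians ranged from -0.14 to -0.11 for PPAR targets, from -0.08 to -0.06 for ERR and PGC-1 targets, and from 0.15 to 0.17 for the mitochondrial genome. No regulator changed direction under these settings. Rescaling moved the median of all genes to between -0.01 and 0.01. The log2 ratio of Pparg ranged from 0.08 with a pseudocount of 5 to 0.54 with 0.1. The order of levels depends on the length used, as stated for Esrra and Nrf1. No paired analysis was possible because each group holds 1 library. Depth limits Ppara and Pparg, with 42 to 108 reads, and the lack of replicates limits every ratio.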
